A study of Mus musculus with 6 samples.

Results

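The integrated stress response genes described here are *Atf4* itself and 9 genes known as its targets, *Ddit3*, *Asns*, *Trib3*, *Chac1*, *Sesn2*, *Psat1*, *Phgdh*, *Shmt2* and *Slc7a11*. They were chosen by name and matched through their Ensembl identifiers, which found all 10 among the 22380 gene identifiers listed for each library. RNA was measured by Smart-Seq2 in mouse embryonic stem cells (mESC), 3 *Ctrl* and 3 *Tet iTKO* libraries, from lines that came from different embryos in the methods. *Ctrl* cells carried CreERT2 (wt/ki) and the reporter allele Gt(ROSA)26Sor tm1Ytchn/J, each as wt/ki. *Tet iTKO* cells carried the same 2 alleles together with floxed alleles of all Tet genes (Tet1/2/3 fl/fl). Both groups received tamoxifen (1 µM, 4-hydroxytamoxifen in the methods) for 2.5 days and were grown for 4 more days, so that RNA was taken at day 6.5. Both groups therefore share the drug, the CreERT2 protein and the H2B-EGFP reporter that recombination switches on. The cells grew with the 2i inhibitors on a layer of embryonic fibroblasts and were sorted as live CD326+, GFP+ and Thy1.2- cells, so each library is a sorted bulk population.

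The integrated stress response begins when a kinase phosphorylates the translation initiation factor eIF2α, which lowers protein synthesis in general while the mRNA of the transcription factor ATF4 is translated better. ATF4 then binds with C/EBP partners at composite sites in genes for amino acid synthesis, amino acid uptake, tRNA charging and the control of the response itself. Both steps upstream of the target genes, phosphorylation and translation, take place on protein and ribosomes and are not measured by RNA levels.

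Of the 10 genes, 9 reached the mean of 10 normalized counts required for a test, and 6 of these were higher in *Tet iTKO* than in *Ctrl* mESC, with none lower, at an adjusted p under 0.05 in limma. The 6 were *Atf4*, *Asns*, *Chac1*, *Sesn2*, *Phgdh* and *Shmt2*, and their increases ran from 11.5% for *Atf4* to 35.2% for *Shmt2*. *Ddit3*, *Trib3* and *Psat1* did not pass the test, and *Slc7a11* was too low to be tested. Over all 10524 genes tested, 34.8% passed, 16.4% as higher and 18.4% as lower in *Tet iTKO*. The median log2 fold change, on the scale of log2(normalized count + 1), was 0.26 over the 9 genes and 0.01 over all genes tested. Most of the members are abundant, and among the 838 genes with a mean of at least 1000 normalized counts the calls leaned the other way, with 19.3% higher and 46.7% lower. In this fit no member reached a log2 fold change of 0.5.

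**Figure D1:**
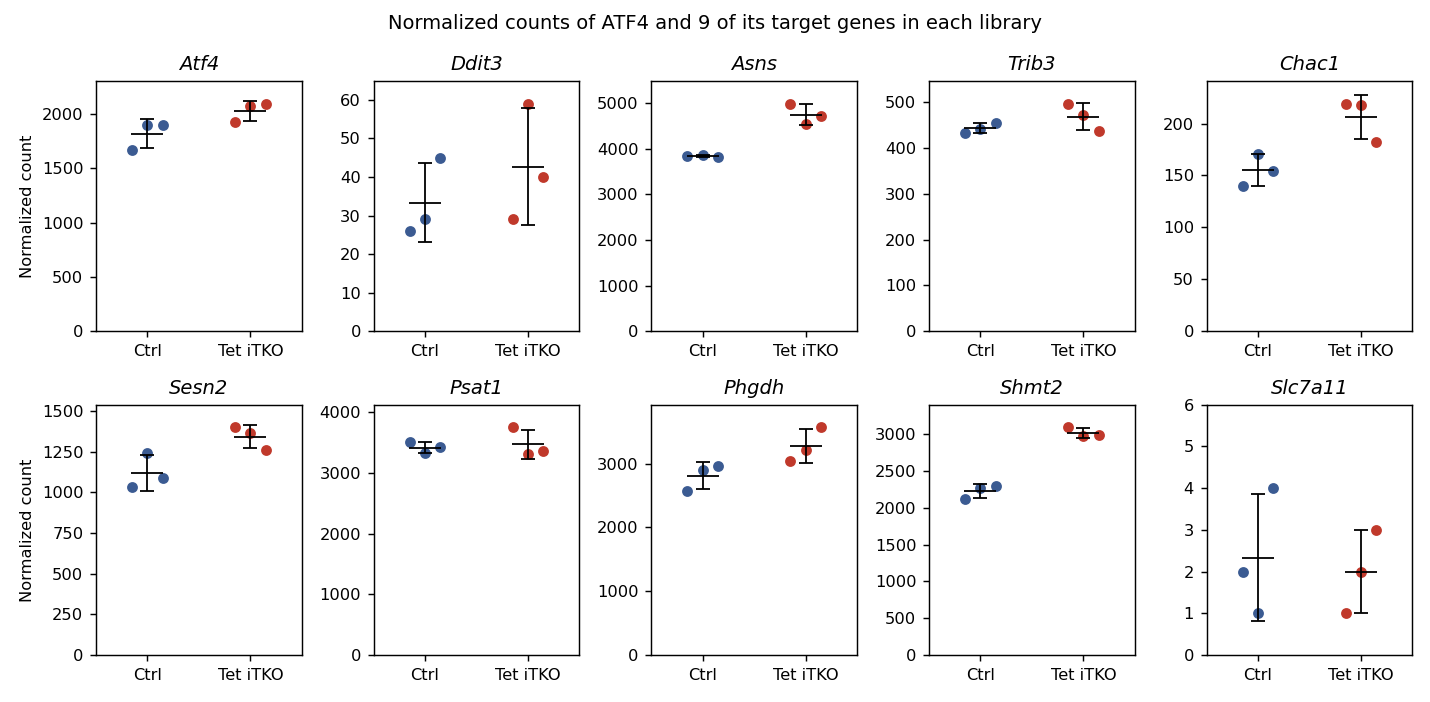
Normalized counts of the 10 genes in each of the 3 *Ctrl* and 3 *Tet iTKO* libraries. For *Asns* and *Shmt2* the groups lie well apart, with *Shmt2* between 2121 and 2303 in *Ctrl* and between 2970 and 3092 in *Tet iTKO*, while the values of *Psat1* and *Trib3* overlap.

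The libraries were close in scale, but every *Tet iTKO* library had a lower sum and more genes above 0 than every *Ctrl* library. Normalized counts summed to between 4210784 and 4219665 in *Ctrl* and between 3964824 and 3996522 in *Tet iTKO*, and 13431 to 13539 genes against 14024 to 14363 were above 0. The markers of pluripotent cells that define these cultures (*Pou5f1*, *Sox2*, *Nanog*, *Esrrb*, *Zfp42* and *Epcam*) summed to 10152 to 10617 in *Ctrl* and 9366 to 9757 in *Tet iTKO*. Of these 6 markers, 2 passed as higher, *Esrrb* (log2 fold change 0.29) and *Epcam* (0.45). Another 3 passed as lower, *Pou5f1* (-0.29), *Nanog* (-0.30) and *Zfp42* (-0.35). Over their whole length the deleted genes gave 682 to 716 against 753 to 895 for *Tet1*, 170 to 249 against 211 to 268 for *Tet2* and 13 to 28 against 3 to 10 for *Tet3*, in *Ctrl* and *Tet iTKO*, values that do not separate the floxed exons from the rest of each transcript and so do not check the deletion. Across genes, the log2 fold change rose with transcript GC content (Spearman 0.258) and length (0.293) over 10457 genes, which share the same 6 libraries, so values after a correction for both are given where they move a result. After that correction 12.5% of all genes were higher and 14.0% lower, and again 6 of the 9 ATF4 genes were higher, with *Psat1* in the place of *Sesn2*. Of the pluripotency markers, *Epcam* (0.53) and *Pou5f1* (-0.19) still passed after it. *Esrrb* (0.06), *Nanog* (-0.10) and *Zfp42* (-0.10) no longer did.

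The composite site that ATF4 and its C/EBP partners are known to bind was searched as the letters TGATGNAA, on both strands, in the 300 bases of each gene's RefSeq promoter (250 before to 50 after the transcript start, GRCm38.p6). All 10 genes had a promoter entry, and 4 of them (40.0%) held the letters in any entry. Among all promoter entries, counted singly and not per gene, 1304 of 32851 (3.97%) held them. The genes were listed as known ATF4 targets, so these shares are a description and not a test. The stretches are printed because they show where the site lies in genes that rose and in genes that did not. The first is from *Asns* at chr6:7693210-7693254 on the minus strand, with the site starting 23 bases before the transcript start. The second is from *Chac1* at chr2:119351027-119351078 on the plus strand, 193 bases before the start. The third is from *Trib3* at chr2:152344029-152344056 on the minus strand, where the site lies in the transcript from its base 15. The fourth is from *Slc7a11* at chr3:50443631-50443701 on the minus strand, which holds 2 copies in opposite orientation, 66 and 47 bases before the start. Each is read 5′ to 3′ on the strand of its gene, with the site in capitals.
Asns: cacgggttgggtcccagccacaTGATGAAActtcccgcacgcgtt
Chac1: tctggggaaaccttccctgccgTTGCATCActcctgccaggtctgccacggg
Trib3: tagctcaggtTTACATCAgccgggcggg
Slc7a11: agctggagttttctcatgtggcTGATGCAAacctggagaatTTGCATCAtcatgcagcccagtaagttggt
A match of letters is not a measured binding site, and binding was not measured in these libraries. *Asns* and *Chac1* were higher in *Tet iTKO*, *Trib3* did not pass the test and *Slc7a11* was barely detected, while *Atf4*, *Sesn2*, *Phgdh* and *Shmt2* were higher without a match in this window.

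*Atf4* (ENSMUSG00000042406.6) encodes the transcription factor at the centre of the response. Its normalized count was 1669, 1898 and 1896 in the *Ctrl* libraries and 1926, 2070 and 2095 in the *Tet iTKO* libraries. All *Tet iTKO* libraries lay above all *Ctrl* libraries, but the lowest of them exceeded the highest *Ctrl* library by little, and *Ctrl* replicate 1 was the lowest of the 6. The means were 1821 ± 132 and 2030.3 ± 91.2 (SD, n = 3 each), a log2 fold change of 0.16 with a standard error of 0.06 and a 95% interval from 0.04 to 0.28 (adjusted p = 0.031 in limma). The difference did not pass without *Ctrl* replicate 1 (log2 fold change 0.10, adjusted p = 0.21 in limma), without *Tet iTKO* replicate 2 (0.14, adjusted p = 0.1) or without *Tet iTKO* replicate 3 (0.14, adjusted p = 0.13). Quantile normalization gave a larger value of 0.28 (adjusted p = 0.0002 in limma).

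Of the regulators that act beside or below ATF4, *Sesn2* passed the test and *Ddit3* and *Trib3* did not. *Ddit3* (ENSMUSG00000025408.9), which encodes the transcription factor CHOP that promotes cell death in prolonged stress, had normalized counts of 26, 29 and 45 in *Ctrl* and 29, 59 and 40 in *Tet iTKO*. The 2 groups overlapped, and the spread within each was wider than the difference between their means. The log2 fold change was 0.33 with a standard error of 0.33, and its 95% interval from -0.33 to 0.99 covers both a fall and a large rise (adjusted p = 0.47 in limma). After the GC content and length correction the log2 fold change was 0.80 and did not pass either (adjusted p = 0.065 in limma). It was 0.07 without *Tet iTKO* replicate 2 and 0.57 without *Tet iTKO* replicate 1, the lowest and highest values with 1 library left out. *Ddit3* also shares 68 bases of exon with the methionyl-tRNA synthetase gene *Mars* on the opposite strand (GENCODE M21 annotation). Smart-Seq2 does not keep the strand, and *Mars* had 2284 to 2550 normalized counts, which at its mean density puts 53.7 on those bases, a value within the range of the whole *Ddit3* count. Reads of the *Ddit3* and *Mars* transcripts cannot be told apart there.

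*Trib3* (ENSMUSG00000032715.8) encodes a pseudokinase that restrains ATF4 and AKT signalling. Its normalized counts were 433, 440 and 454 in *Ctrl* and 496, 471 and 437 in *Tet iTKO*. *Tet iTKO* replicate 3 fell inside the *Ctrl* range, while replicates 1 and 2 lay above it. The log2 fold change was 0.08 with a 95% interval from -0.10 to 0.26 (adjusted p = 0.52 in limma). This interval lies below the estimates of *Asns* and *Shmt2*, 0.30 and 0.44, but overlaps the interval of *Asns*, from 0.21 to 0.40. No test compared these genes with *Trib3*.

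*Sesn2* (ENSMUSG00000028893.8) encodes sestrin 2, a leucine sensor that restrains the growth kinase complex mTORC1 and is also a p53 target. Its normalized counts were 1031, 1241 and 1087 in *Ctrl* and 1399, 1367 and 1262 in *Tet iTKO*. The groups did not overlap, with *Ctrl* replicate 2 and *Tet iTKO* replicate 3 close together. The log2 fold change was 0.26 with a standard error of 0.07 (adjusted p = 0.0021 in limma), and it held without any 1 library. The correction for GC content and length took it to -0.04 (adjusted p = 0.72 in limma). *Sesn2* had the highest GC content of the 10 genes, 58.7%, and a transcript of 3475 bases.

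*Chac1* (ENSMUSG00000027313.3) encodes a glutathione-degrading enzyme. Its normalized counts were 140, 171 and 154 in *Ctrl* and 219, 218 and 182 in *Tet iTKO*. The groups did not overlap, and *Tet iTKO* replicate 3 was the library closest to *Ctrl*. The means were 155 ± 15.5 and 206.3 ± 21.1 (SD, n = 3 each), a log2 fold change of 0.41 with a standard error of 0.14 (adjusted p = 0.019 in limma). The estimate stayed between 0.34 and 0.50 when 1 library was left out, but it did not pass without *Ctrl* replicate 1 (adjusted p = 0.079 in limma), *Tet iTKO* replicate 1 (adjusted p = 0.078) or *Tet iTKO* replicate 2 (adjusted p = 0.086).

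*Asns* (ENSMUSG00000029752.6), which encodes asparagine synthetase, showed an even separation. Its normalized counts were 3830, 3861 and 3812 in *Ctrl* and 4982, 4529 and 4705 in *Tet iTKO*. The *Ctrl* libraries differed by under 50 counts, and every *Tet iTKO* library was well above them. The means were 3834.3 ± 24.8 and 4738.7 ± 228 (SD, n = 3 each), a rise of 23.6%, with a log2 fold change of 0.30, a standard error of 0.05 and a 95% interval from 0.21 to 0.40 (adjusted p = 1.4e-06 in limma). The GC content and length correction raised it to 0.50 (adjusted p = 7.3e-12 in limma).

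Serine and glycine are made by enzymes that lie in a row, of which the genes for the first and last of the 3 measured here passed the test. *Phgdh* (ENSMUSG00000053398.5) encodes the dehydrogenase of the first step from glycolysis to serine, and its normalized counts were 2565, 2897 and 2961 in *Ctrl* and 3036, 3219 and 3566 in *Tet iTKO*. The groups did not overlap, though both were spread widely and *Ctrl* replicate 3 lay near *Tet iTKO* replicate 1. The log2 fold change was 0.22 with a standard error of 0.06 and a 95% interval from 0.11 to 0.33 (adjusted p = 0.002 in limma). *Psat1* (ENSMUSG00000024640.3) encodes the aminotransferase of the next step, with 3506, 3331 and 3422 in *Ctrl* and 3751, 3311 and 3366 in *Tet iTKO*. Of the *Tet iTKO* libraries only replicate 1 was above the *Ctrl* range, and replicate 2 was below it. The log2 fold change of *Psat1* was 0.02 with a 95% interval from -0.08 to 0.12 (adjusted p = 0.77 in limma). This call depended on the processing, since *Psat1* passed as higher after the GC content and length correction (0.13, adjusted p = 0.036 in limma) and after quantile normalization (0.17, adjusted p = 0.006).

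*Shmt2* (ENSMUSG00000025403.3) encodes the mitochondrial enzyme that converts serine to glycine and feeds the folate pool. Its normalized counts were 2121, 2266 and 2303 in *Ctrl* and 3092, 2970 and 2985 in *Tet iTKO*. The gap between the groups was several times the range within either. The means were 2230.0 ± 96.2 and 3015.7 ± 66.5 (SD, n = 3 each), a log2 fold change of 0.44 with a standard error of 0.05 and a 95% interval from 0.33 to 0.54 (adjusted p = 1.2e-08 in limma). It was the largest log2 fold change of the 9 tested members, and together with *Asns* it passed under all 17 alternative settings of the fit.

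*Slc7a11* (ENSMUSG00000027737.5) encodes the cystine and glutamate exchanger that supplies cysteine for glutathione. Its normalized counts were 2, 1 and 4 in *Ctrl* and 1, 2 and 3 in *Tet iTKO*. These lie about the floor of 3 counts in both groups, so that no difference was detectable at this depth and no fold is given, although its promoter window holds 2 copies of the searched site.

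With 3 libraries a group, the exact two-sided permutation test of a single gene cannot go below p = 0.1, and it took that value for each of the 6 genes called. The corresponding background is that 21.2% of all genes tested had every *Tet iTKO* library above every *Ctrl* library, and 22.9% the reverse. The exact p was 0.3 for *Trib3*, 0.6 for *Ddit3* and 0.9 for *Psat1*.

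**Figure D2:**
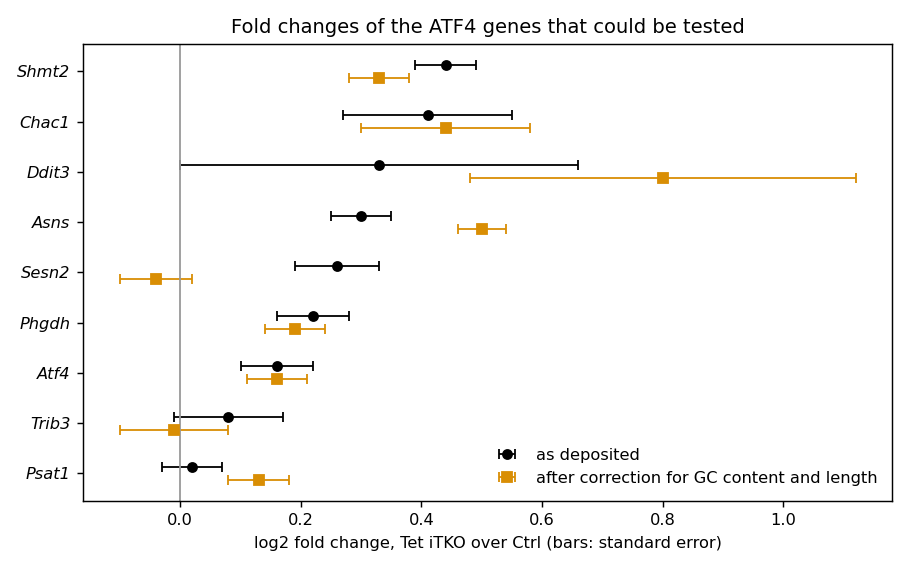
Log2 fold change of *Tet iTKO* over *Ctrl*, on the log2(normalized count + 1) scale, for the 9 genes tested, before and after the correction for GC content and length. Bars show the standard error of the limma fit. *Shmt2*, at 0.44, and *Asns*, at 0.30, lie clear of 0 in both, while *Sesn2* moves from 0.26 to -0.04.

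Levels between genes were compared as normalized counts per kilobase of the longest annotated transcript. In *Ctrl* the order was *Asns* (1902.0), *Phgdh* (1483.2), *Psat1* (1306.7), *Shmt2* (974.2), *Atf4* (901.9), *Sesn2* (322.2), *Trib3* (218.3), *Chac1* (94.7), *Ddit3* (34.4) and *Slc7a11* (0.253). The biosynthetic enzymes and *Atf4* thus stood well above the regulators and *Chac1*. Only *Shmt2* and *Atf4* were neighbours whose *Ctrl* libraries overlapped, at 926.6 to 1006.1 and 826.6 to 940.1 per kilobase. In *Tet iTKO* the order of means was the same, with *Shmt2* at 1317.5 per kilobase now close to *Psat1* at 1328.2.

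**Figure D3:**
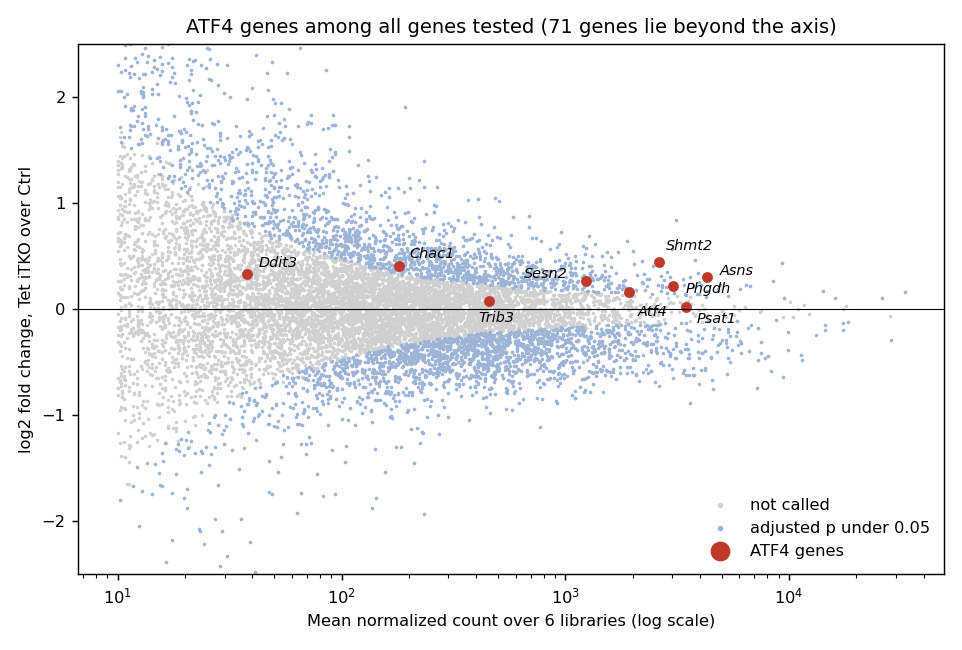
Log2 fold change against mean normalized count (log axis) for all genes tested, with the 9 ATF4 genes marked. The marked genes lie between 0.02 and 0.44 and mostly among the abundant genes, and 71 genes lie beyond the fold change axis limit of 2.5.

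The other genes of the pathway were read from the same fit through 9 lists with 96 genes, of which 93 were tested. Of these, 27 were higher and 18 lower, with a median log2 fold change of 0.04. The shares over all genes tested, 16.4% higher and 18.4% lower, are the background for these counts and for those of each list below. Quantile normalization changed the split of the 93 genes to 32 higher and 10 lower. After the GC content and length correction 26 of them were higher and 12 lower, where the shares over all genes were 12.5% and 14.0%.

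Among the 14 genes for the eIF2α kinases, eIF2α, its phosphatase and the exchange factor eIF2B, 2 were higher and 4 lower, and after the GC content and length correction 1 was higher and 2 lower. None of the 4 kinase genes passed the test, with log2 fold changes of -0.11 for *Eif2ak1* (HRI), 0.48 for *Eif2ak2* (PKR), 0.03 for *Eif2ak3* (PERK) and -0.03 for *Eif2ak4* (GCN2). *Ppp1r15a*, which encodes the stress-induced phosphatase subunit GADD34 that ends the response, had 174, 168 and 167 normalized counts in the *Ctrl* libraries against 272, 233 and 210 in *Tet iTKO*. The groups did not overlap and the log2 fold change was 0.48 (adjusted p = 0.0036 in limma). *Gcn1*, the activator of GCN2, was higher by 0.33 (adjusted p = 0.0031 in limma) but lower by the same test after the GC content and length correction (-0.26, adjusted p = 0.034). *Eif2b5*, the catalytic subunit of eIF2B, was lower with a log2 fold change of -0.30 (adjusted p = 1e-04 in limma), a value that the correction left at -0.30. The other calls of a lower level were lost after the correction, where *Eif2s1*, which encodes eIF2α, went from -0.26 to -0.09, *Eif2b1* from -0.22 to -0.06 and *Eif2b2* from -0.26 to -0.15. *Eif2b1* also failed without *Ctrl* replicate 2 or *Tet iTKO* replicate 2 or 3 (-0.24 to -0.19 over the fits that left out 1 library), and *Eif2b2* without *Ctrl* replicate 2 or *Tet iTKO* replicate 3 (-0.32 to -0.16).

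Of 15 bZIP partners and other stress regulators, 13 were tested, and 9 were higher and none lower. *Vldlr*, which is among the 9, reached the mean of 10 only through the *Tet iTKO* libraries. *Cebpb*, a C/EBP factor, had 53, 38 and 67 normalized counts in the *Ctrl* libraries against 123, 135 and 112 in *Tet iTKO*. Its groups were far apart, and the log2 fold change reached 1.24 (SE 0.22 and adjusted p = 2e-05 in limma). *Nupr1*, a small chromatin-associated stress protein, had 400, 432 and 477 against 659, 731 and 732, a log2 fold change of 0.70 (adjusted p = 3e-08 in limma). *Pmaip1* and *Bbc3*, which encode the cell death proteins NOXA and PUMA and are p53 targets as well, were higher by 0.54 and 0.55 (adjusted p = 0.00013 and 0.00018 in limma). The calls of these 4 genes held without any 1 library, whereas those of the other 5 were lost in some fits that left out 1 library. After the GC content and length correction the same 9 genes passed as higher. *Atf5* failed without *Ctrl* replicate 1 or *Tet iTKO* replicate 3 (log2 fold change 0.43 to 0.67 over the fits that left out 1 library), and *Stc2* without replicate 1 of either group (0.80 to 1.35). *Vldlr*, at 7, 1 and 3 normalized counts against 21, 18 and 10, failed without *Ctrl* replicate 2 (1.56 to 2.56 over the 4 such fits in which its mean reached 10). *Herpud1* failed without *Ctrl* replicate 1 or 2 or *Tet iTKO* replicate 1 or 3 (0.27 to 0.44), and *Eif4ebp1* without *Ctrl* replicate 1 or *Tet iTKO* replicate 2 or 3 (0.06 to 0.17). *Cebpg*, *Ddit4*, *Gdf15* and *Tnfrsf10b* did not pass, and *Atf3* and *Fgf21* fell below the mean of 10. *Cebpb* shares 312 bases of exon with *Tmem189* on the opposite strand, a gene with a mean of 140.0 normalized counts, whose reads cannot be told apart from its own there.

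Of the 8 amino acid transport genes, 6 were higher and 1 lower, and after the GC content and length correction 4 were higher and 1 lower. The neutral amino acid carriers *Slc1a4*, at 118, 153 and 129 normalized counts in the *Ctrl* libraries against 243, 200 and 238 in *Tet iTKO*, and *Slc1a5*, at 1089, 1132 and 1040 against 1571, 1485 and 1558, both had groups that did not overlap. Their log2 fold changes were 0.77 (adjusted p = 4.9e-05 in limma) and 0.50 (adjusted p = 3.3e-08). *Slc7a5*, the light chain of the large neutral amino acid exchanger LAT1, was higher by 0.39 (adjusted p = 1.6e-06 in limma), and by 0.17 after the correction (adjusted p = 0.022). *Slc3a2*, the heavy chain that LAT1 shares with the exchanger of *Slc7a11*, had 2215, 2133 and 2155 against 2126, 2150 and 2168 and did not pass (log2 fold change -0.01, adjusted p = 0.87 in limma). *Slc38a2* was higher by 0.39 (adjusted p = 1.5e-05 in limma), and the cationic amino acid carrier *Slc7a3* was lower, at -0.37 (adjusted p = 5e-06 in limma). The call of *Slc7a1* was lost without *Ctrl* replicate 2 or *Tet iTKO* replicate 1 (log2 fold change 0.25 to 0.50 over the fits that left out 1 library), and that of *Slc6a9*, a glycine carrier, without *Ctrl* replicate 1 or *Tet iTKO* replicate 2 or 3 (0.85 to 1.33). Neither passed after the correction, at 0.10 for *Slc7a1* (adjusted p = 0.59 in limma) and 0.85 for *Slc6a9* (adjusted p = 0.061).

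In the list of serine, one-carbon and amino acid synthesis, 10 of 11 genes were tested, and 2 were higher and 2 lower, or 4 and 1 after the GC content and length correction. Both that were higher belong to proline synthesis, *Pycr1* with a log2 fold change of 0.48 (adjusted p = 0.00013 in limma) and *Aldh18a1* with 0.45 (adjusted p = 2.3e-05). *Psph*, the phosphatase that completes serine synthesis after *Phgdh* and *Psat1*, had 1029, 1215 and 1117 normalized counts in the *Ctrl* libraries against 1036, 940 and 1042 in *Tet iTKO*, which overlap (log2 fold change -0.15, adjusted p = 0.083 in limma). *Psph* shares 452 bases of exon with *Cct6a* on the opposite strand, a gene with a mean of 3487 normalized counts, and reads of the 2 genes cannot be told apart there. *Shmt1*, the cytosolic counterpart of *Shmt2*, had 1042, 1018 and 1010 against 857, 933 and 925, a log2 fold change of -0.18 (adjusted p = 0.036 in limma). The call of *Shmt1* was lost when any library but *Tet iTKO* replicate 2 was left out (-0.20 to -0.14), and its correction for GC content and length gave -0.11 (adjusted p = 0.23 in limma). As a pair chosen after their values were seen, and so with no test, the log2 ratio of *Shmt2* to *Shmt1* was 1.12 ± 0.09 in *Ctrl* and 1.74 ± 0.10 in *Tet iTKO* (SD, n = 3 each). *Mthfd2*, the mitochondrial folate enzyme downstream of *Shmt2*, did not pass (0.17, adjusted p = 0.098 in limma) but did after the correction (0.31, adjusted p = 0.0021), as did *Cth*, which encodes the enzyme that makes cysteine from cystathionine (0.07 before, and 0.36 after, with an adjusted p of 0.00056).

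The aminoacyl-tRNA synthetases charge tRNAs with amino acids. Among 12 known as ATF4 targets 3 were higher and 1 lower, and among 8 other cytosolic synthetases 1 was higher and 2 lower. *Iars* was higher by 0.33 (adjusted p = 0.00015 in limma), *Eprs* by 0.23 (adjusted p = 0.0017) and *Aars* by 0.22 (adjusted p = 0.00055), but *Aars* was lower after the GC content and length correction (-0.14, adjusted p = 0.038). *Aars* shares 1326 bases of exon with *Exosc6* on the same strand, where their reads cannot be told apart. *Wars* was lower (-0.26, adjusted p = 0.0047 in limma). After the correction, 4 of the 12 were higher and 3 lower, and none of the 8 others passed in either direction.

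Other stress pathways run beside the ATF4 branch. Of 16 genes of the XBP1 and ATF6 branches of the unfolded protein response, 2 were higher and 4 lower, and after the GC content and length correction none was higher and 2 were lower. *Ern1*, 1 of the 2 higher, reached the mean of 10 only through *Tet iTKO*. *Xbp1*, the transcription factor of the IRE1 branch, had 818, 870 and 858 normalized counts in the *Ctrl* libraries against 609, 617 and 593 in *Tet iTKO*. The groups lay far apart, with a log2 fold change of -0.48 (adjusted p = 2e-06 in limma). *Hspa5*, the main chaperone of the endoplasmic reticulum, was lower as well (-0.24, adjusted p = 0.00045 in limma), though not after quantile normalization. Of 5 genes of the mitochondrial unfolded protein response 1 was higher and 2 lower, or 2 and 1 after the correction. The subunits of 1 chaperonin differed in sign, *Hspd1* at 0.26 (adjusted p = 3.3e-05 in limma) and *Hspe1* at -0.60 (adjusted p = 4.9e-11). After the GC content and length correction *Hspe1* was at -0.13 (adjusted p = 0.062 in limma). *Hspd1* and *Hspe1* share 112 bases of exon on opposite strands, where their reads cannot be told apart. The last list has 7 genes, targets of NRF2 and *Nfe2l2*, the gene of NRF2 itself, the regulator of the oxidative stress response that also controls *Slc7a11*. Of the 7, 1 was higher and 2 lower, or 2 and 2 after the correction, with *Nqo1* at -0.71 (adjusted p = 2.2e-06 in limma) and *Gclm* at 0.31 (adjusted p = 0.00046).

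**Figure D4:**
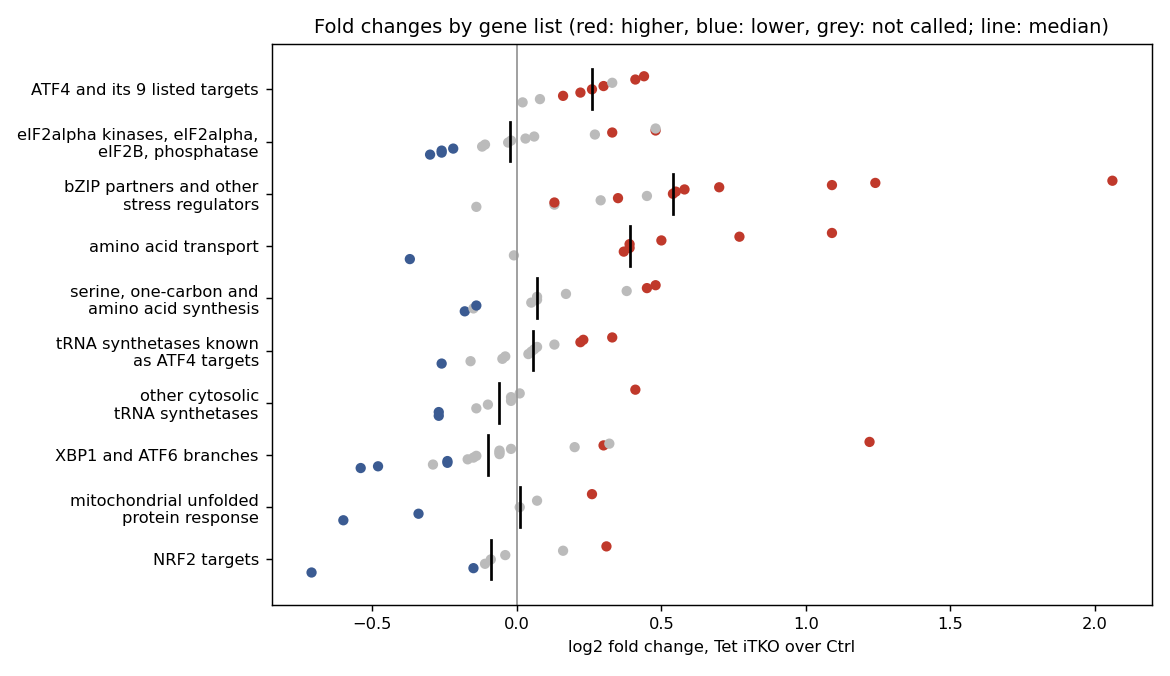
Log2 fold change of each tested gene in the ATF4 group and in the 9 pathway lists, with genes that passed the limma test marked and the median of each list shown. Of the 13 stress regulators 9 passed as higher and none as lower, and of the 8 amino acid transport genes 6 passed as higher and 1 as lower. Over all genes tested 16.4% passed as higher and 18.4% as lower.

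The same search for TGATGNAA in the promoters of the pathway lists found it in 5 of 12 stress regulators with a promoter entry (41.7%) and 5 of 8 synthetases known as ATF4 targets (62.5%). It was in 1 of 5 amino acid transport genes and in 1 of 9 genes of serine, one-carbon and amino acid synthesis. It was in none of the 11 entries of the kinase and eIF2B list and in none of the 13 of the XBP1 and ATF6 branches. Sequences of 2 genes that rose are printed beside those of the ATF4 group, for *Nupr1* at chr7:126625551-126625602 on the minus strand, 110 bases before the start, and for *Pycr1* at chr11:120643822-120643873 on the minus strand, 103 bases before it.
Nupr1: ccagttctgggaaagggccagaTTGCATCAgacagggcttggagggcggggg
Pycr1: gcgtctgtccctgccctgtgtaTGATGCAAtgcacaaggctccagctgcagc
Both matches lie upstream of the transcript start, as in *Asns*, *Chac1* and *Slc7a11*. Those of *Iars* and *Yars* lie inside the transcript, as in *Trib3*. Of the synthetases that held the site, *Iars* and *Aars* passed as higher before the correction. *Gars*, *Tars* and *Yars* held it and did not pass (log2 fold changes 0.06, 0.04 and -0.04). After the correction *Gars* passed as higher (0.16, adjusted p = 0.012 in limma), and *Tars* and *Yars* again did not pass. Of the stress regulators that held it, *Nupr1*, *Herpud1* and *Vldlr* passed, and *Atf3* and *Fgf21* were too low to be tested.

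The profile of *Atf4* over the 6 libraries, as log2(normalized count + 1) centred on its mean, was most like those of *Eif4ebp1*, *Lrwd1*, *Snrpa*, *Chchd10* and *Mif* among 7788 other genes with a mean of at least 50. Their root mean square differences from it ran from 0.020 for *Eif4ebp1* to 0.041 for *Mif*, where the profile of *Atf4* had an SD of 0.107. *Eif4ebp1*, which encodes the translation repressor 4E-BP1, had 4644, 5368 and 5226 normalized counts in the *Ctrl* libraries against 5294, 5608 and 5705 in *Tet iTKO*, and like *Atf4* it was lowest in *Ctrl* replicate 1. For *Shmt2*, whose profile had an SD of 0.222, the nearest were *Nt5dc2*, *Dcakd*, *Lgals1*, *Gtf2i* and *Tle3*, at 0.028 to 0.036.

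**Figure D5:**
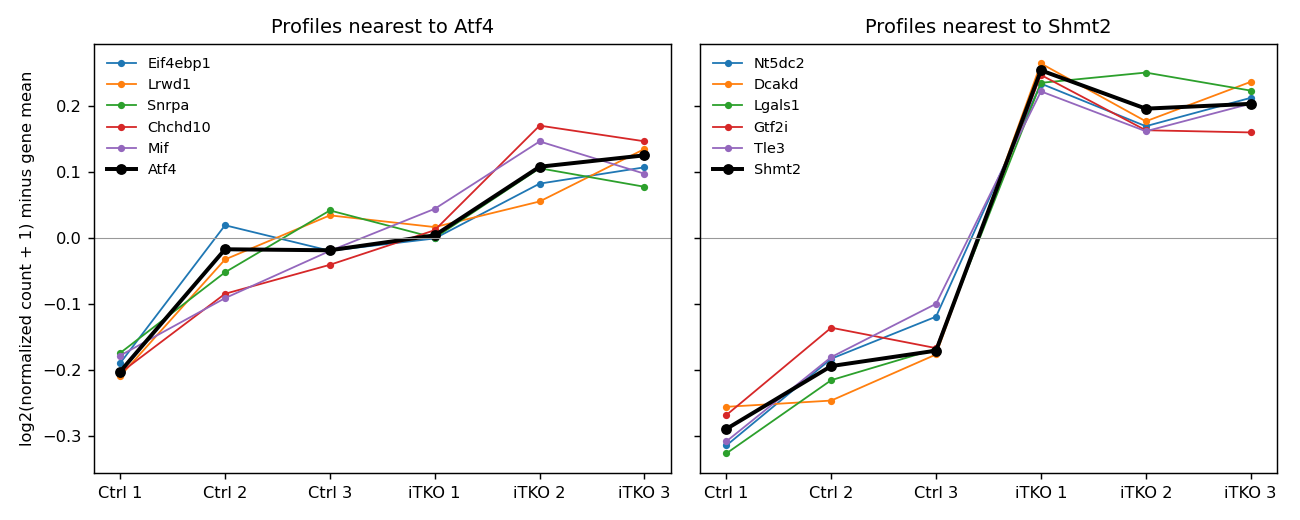
Centred log2(normalized count + 1) of *Atf4* and of *Shmt2* with their 5 nearest genes in each of the 6 libraries, where lines only link the values of 1 gene. *Eif4ebp1* tracks *Atf4* most closely, with a root mean square difference of 0.020.

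The summed markers of other cells differed between the groups, except that the sums for primitive endoderm overlapped, and single markers of a list did not all go the same way. The 8 markers of feeder fibroblasts summed to 280 to 292 normalized counts in *Ctrl* and 477 to 554 in *Tet iTKO*, and none was at 0 in all libraries. The difference lay in the collagens, with means of 167.0 against 311.3 for *Col1a1*, 38.0 against 85.7 for *Col1a2* and 26.0 against 67.7 for *Col3a1*. The other fibroblast markers stayed low, with means of 3.7 against 3.0 for *Pdgfrb*, 3.7 against 1.7 for *Lum*, 6.7 against 3.0 for *Dcn* and 0.3 against 1.3 for *Postn*. *Thy1*, the surface protein that the sort selected against, was at 30, 46 and 41 against 47, 35 and 23 and did not pass (adjusted p = 0.69 in limma). Markers of two-cell-like cells summed to 11 to 22 in *Ctrl* and 110 to 140 in *Tet iTKO*, with *Tdpoz4* at 0 throughout and *Zfp352* at 0 to 2. The sums for primed epiblast were 2061 to 2100 against 2378 to 2560, and for trophoblast 695 to 755 against 612 to 640. For primitive endoderm they were 5 to 18 against 17 to 36. The fall for trophoblast lay in *Tfap2c* (means of 705.3 against 586.0). *Eomes* did not fall (log2 fold change 0.84, adjusted p = 0.091 in limma). The primed epiblast sum was mostly *Dnmt3b*, at 0.24, and 0.07 after the GC content and length correction (adjusted p = 0.31 in limma). *Otx2* passed before and after it (0.81 and 0.95). The primitive endoderm sum was mostly *Gata4*, which reached the mean of 10 only through *Tet iTKO* and did not pass after the correction (adjusted p = 0.08 in limma). The part of these cells in the changes of the ATF4 genes was not tested, and in bulk RNA more cells of a kind and more RNA per cell cannot be told apart.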

How the data were processed

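The authors aligned paired Smart-Seq2 reads to mm9 with STAR, kept unique alignments, counted them per gene with HTSeq 0.7.1 with a strand setting and divided by DESeq2 1.26.0 size factors in R 3.5.2, per the processing notes and methods. As deposited, the values have the unit score, being normalized counts rounded to whole numbers and not reads. Summed per library they ran from 3964824 to 4219665, and a count of 3 was taken as the floor, which covers counting error only since Smart-Seq2 has no molecular identifiers.

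Symbols, transcript lengths and GC contents came from GENCODE M21 (20775 of 22380 identifiers) and promoters from RefSeq GRCm38.p6. No gene coordinates were carried between builds. The fit used limma 3.58.1 under R 4.3.3 (eBayes with a trend, group as the sole term) on log2(normalized count + 1). It took in the 10524 genes whose mean reached 10, with Benjamini-Hochberg adjustment and a threshold of 0.05. This scale understates changes of low genes. Single genes were also compared by exact permutation. The correction subtracted, in each library, a loess fit (span 0.3) on GC content and length. Other steps used Python 3.11.15 (SciPy 1.17.1, NumPy 2.4.6, pandas 2.3.3). The fit was tested on simulated data.

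The members, the pathway lists and the alternatives were chosen with earlier results of these data known. Named genes are the members, pathway genes that passed with the largest changes or that lie next to a member, and the 5 nearest profiles of *Atf4* and *Shmt2*. Alternatives were pseudocounts of 0.5 and 4, no filter or a mean of 50, trimmed-mean rescaling, quantile normalization, no trend, robust fitting, a replicate block, the correction and each library left out.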

Additional observations from a re-analysis of the deposited data

How the results depend on the processing

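*Asns* and *Shmt2* passed as higher under all 17 alternatives. Without the trend of variance on expression, 2292 genes passed in place of 3665, and 2 ATF4 genes in place of 6, *Asns* and *Shmt2*. *Atf4*, *Chac1*, *Sesn2* and *Phgdh* then had limma adjusted p of 0.26, 0.063, 0.12 and 0.18, and 23 of the other pathway genes passed in place of 45. With a log2 fold change of at least 0.5 required, 1907 genes and 0 ATF4 genes passed, and with at least 1, 658 and 0. The loss at these thresholds follows from the rule itself, and the cause of the loss without the trend was not tested. *Sesn2* turned to -0.04 after the GC content and length correction, and to -0.04 with the replicate block added. *Atf4* also failed with no filter on low values (limma adjusted p = 0.1). Leaving out 1 library gave 2962 to 3367 genes, 4 to 6 ATF4 genes and 35 to 46 other pathway genes.

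The replicate numbers did not pair the libraries, since the deviations of same-numbered libraries correlated at 0.001, -0.005 and -0.003. With the replicate block 3742 genes and 6 ATF4 genes passed. At this depth *Slc7a11* was not measurable.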
